A study of Mus musculus with 36 samples.

Results

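The comparison set 7 neurons from the dSC of M11GTTG-Fz10-CreER mice against 5 neurons from the dSC of M11GTTG-Sox2-CreER mice, 12 of the 36 single neurons in the series. Members were chosen by 2 labels, the tissue and the genotype. dSC is read here as the deep superior colliculus. The Fz10-CreER cells belonged to 7 clones, A, B, C, I, J, L and U, with 1 dSC cell each. The Sox2-CreER cells belonged to 4 clones. Clones D, F and Q gave 1 dSC cell each, and clone O gave 2, named O.1 and O.2, which were averaged. The clone was therefore the replicate, with 7 Fz10-CreER and 4 Sox2-CreER clone means.

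Both groups carried the M11GTTG cassettes of MADM (mosaic analysis with double markers) and a CreER transgene, were labelled on embryonic day 12, and were kept on a mixed C57/Bl6, FVB and CD1 background. They differed in the gene that drives CreER. No group without a driver entered the comparison. A driver marks the progenitor in which recombination took place, so it describes the ancestor of a neuron and not the neuron itself. The labels name no animals and give no age at collection for single cells. Clone, animal, litter and day of collection cannot be told apart, and several clones of a driver can come from 1 animal. All 12 cells are labelled as neurons. The remaining 24 cells came from sSC (22 cells, read as the superficial colliculus) and PAG (2 cells, read as the periaqueductal grey).

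In MADM, Cre joins split fluorescent marker genes between homologous chromosomes, and a division after that event gives daughters of different colours, so that the offspring of 1 radial glia cell can be followed. Radial glia are the dividing progenitors of the neural tube. Fz10 is read here as Fzd10, a Frizzled receptor for Wnt ligands, found in the dorsal neural tube during development. Sox2 encodes a transcription factor of neural progenitors along the whole neural tube. The colliculus holds excitatory neurons, marked by the vesicular glutamate transporter Slc17a6, and inhibitory neurons, marked by the GABA synthesis enzymes Gad1 and Gad2.

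RNA was polyadenylated and amplified by SMART-Seq (Single Cell PLUS kit). Values are the deposited signal per gene and cell, which sums to 2000000 in every cell and keeps no read depth, so the depth per cell is unknown. Genes at a signal of 1 or more numbered 9511 to 15472 in Fz10-CreER cells and 7095 to 13815 in Sox2-CreER clones, with averages of 12646 ± 2077 (SD, n = 7 clones) and 11094 ± 2862 (SD, n = 4). The difference of 1552 did not pass (two-sided exact permutation test, p = 0.330, where 0.00303 is the smallest p the 330 arrangements allow), and without clone D it was 219. Cell D.1 had the fewest genes, 7095. Between 25.7% and 43.1% of the signal of a dSC cell lay in genes that each held 1% or more of some cell. Neuronal genes were present in all 12 cells. Snap25, of the synaptic fusion machinery, ranged from 1479 to 2528 in Fz10-CreER and from 1570 to 2765 in Sox2-CreER cells. The neuronal splicing factor Rbfox3 ranged from 32.5 to 105 in Fz10-CreER and from 29.8 to 133 in Sox2-CreER cells. The 12 neuron identity genes had a median difference of 0.09.

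Of 16310 genes tested in dSC, 1 gene differed between the drivers (limma with Benjamini-Hochberg adjustment, threshold 0.05), which is 0.00613% of the genes tested. It was Gm17122, a noncoding gene annotated antisense to Coro1c, the gene of an actin-binding coronin. Gm17122 read 873, 438, 7567, 594, 1912, 636 and 1413 in the Fz10-CreER cells A.2, B.1, C.1, I.1, J.1, L.2 and U.2. In Sox2-CreER cells it read 0 in D.1, F.1, O.1 and Q.2, and 3959 in O.2. All 7 Fz10-CreER cells thus had signal, as did 1 of 5 cells of Sox2-CreER clones, and that 1 cell had a higher signal than 6 of the 7 Fz10-CreER cells. On the log2(signal + 1) scale, used for all differences here, the clone means averaged 10.19 ± 1.40 in Fz10-CreER clones and 1.49 ± 2.99 in Sox2-CreER clones. Gm17122 rose in Fz10-CreER clones by 8.70 (SE 1.03, 95% interval 6.53 to 10.86, limma adjusted p = 0.00134). The clone means did not overlap between drivers, while the cells did. The zeros of clones D, F and Q leave no measured spread among these 3, and the call turned on how clone O entered.

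With O.1 alone for clone O the difference was 10.19 (limma adjusted p = 3.46e-07). With O.2 alone it was 7.20 and did not pass (0.958), nor did it when the 2 cells were averaged before the logarithm (7.45, 0.957). The call also ended without clone D (8.20, adjusted p = 0.400), without clone F (8.20, 0.180), without the trend and robust options of the fit (8.70, 0.0981), and when the spread was estimated together with that of the sSC clones (8.70, SE 2.00, 0.452). The sign was positive in each of these fits.

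The values of Gm17122 had no low range. Its smallest signal above 0 in any of the 36 cells was 438, against a median smallest signal above 0 of 2.80 over the genes tested in dSC, and 168 of these genes (1.03%) had a smallest signal at least as high. Gm17122 has 2 exons of 290 and 82 bases and an intron of 144 bases in the GENCODE M21 annotation, and it lies wholly inside the untranslated part of Coro1c on the other strand. Its spliced length is 372 bases. Whether the counting used strand is not given in the sources used here, so reads of Gm17122 and Coro1c cannot be told apart. Coro1c itself read 16.5, 19.3, 29.985, 14.1, 36.5, 56.1 and 59.9 in the Fz10-CreER cells, against 82.1 in D.1, 0.389 in F.1, 0 in O.1, 33.3 in O.2 and 69.9 in Q.2. D.1 and Q.2 thus had the highest Coro1c signal of the 12 cells and no Gm17122 signal. The difference of Coro1c was 1.02 (SE 1.19, limma adjusted p = 0.948), and -0.12 without clone F.

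**Figure D1:**
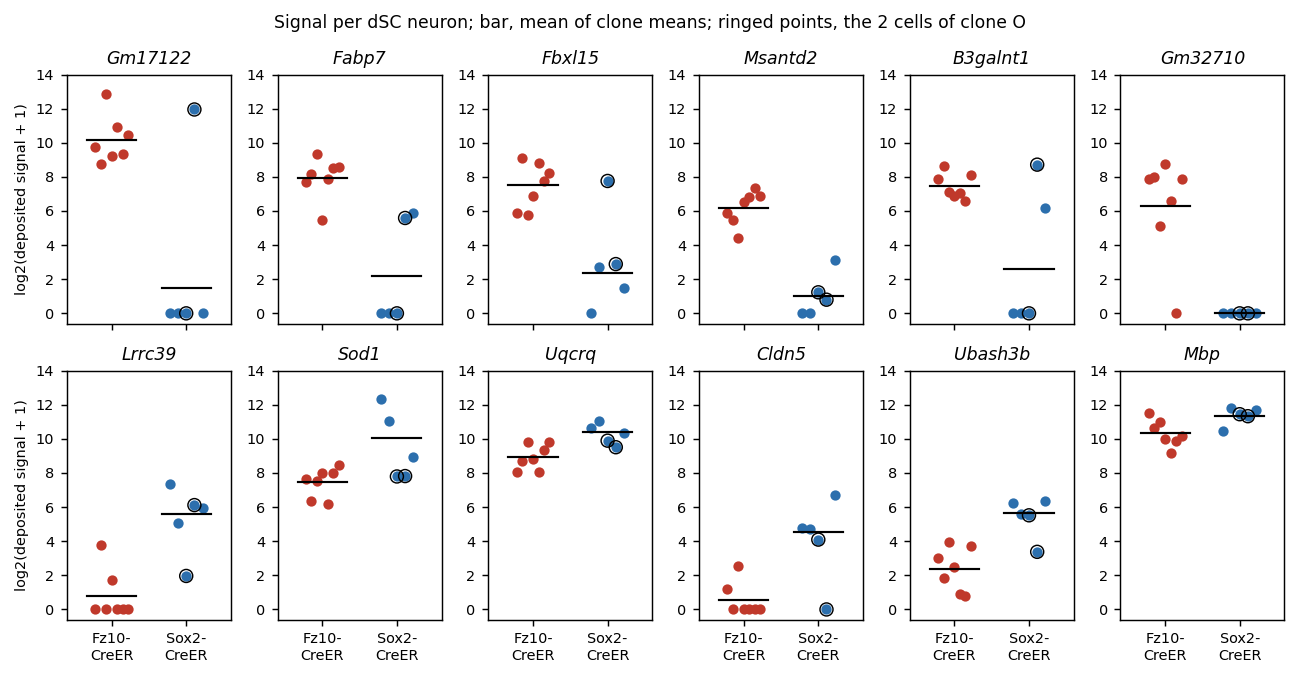
Signal of 12 genes in the dSC neurons, as log2(deposited signal + 1), with Fz10-CreER cells in red at the left and Sox2-CreER cells in blue at the right. Black bars are means of clone means (n = 7 and n = 4) and ringed points are the 2 cells of clone O; Gm17122 sits between 438 and 7567 in the 7 Fz10-CreER cells, and at 0 in 4 of 5 Sox2-CreER cells.

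The driver difference of Gm17122 ran the other way in sSC. There 8 of 15 Fz10-CreER cells had signal, against all 7 cells of Sox2-CreER clones, with means over clones of 4.84 and 11.05 and a difference of -6.21 (SE 1.84, limma adjusted p = 0.856). The dSC difference minus the sSC difference was 14.90 (SE 2.64, limma adjusted p = 0.0311), and Gm17122 was the 1 gene past the threshold of 14613 tested (0.00684%). Over all these genes the median dSC minus sSC difference was 0.80, and -0.093 with genes detected as a covariate. In sSC alone the median driver difference was -0.38, with 36 genes higher and 551 lower at an unadjusted p under 0.05 in limma. The 7 Fz10-CreER clones each had a sister cell in sSC, and these read 1000 in A.1 and 7309 in U.1, and 0 in B.2, C.2, I.2, J.2 and L.1, while all 7 dSC cells were at 438 or more. In the 2 Sox2-CreER clones with both tissues, the sSC cells F.2 and Q.1 read 952 and 4173 and the dSC cells F.1 and Q.2 read 0. The PAG cells of Sox2-CreER clones D and H read 926 and 2036. In 7 of these 9 clones, 1 cell was thus at 0 and its sister was not. This call ended at a pseudocount of 10, without the low-value filter, after quantile normalization, without trend and robust, with genes detected as a covariate, and with clone as a replicate block. It also ended when clone B, C, D, F, H, I, J, L, M, N, Q, R or S was left out (limma adjusted p between 0.0503 and 0.479 for Gm17122).

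**Figure D2:**
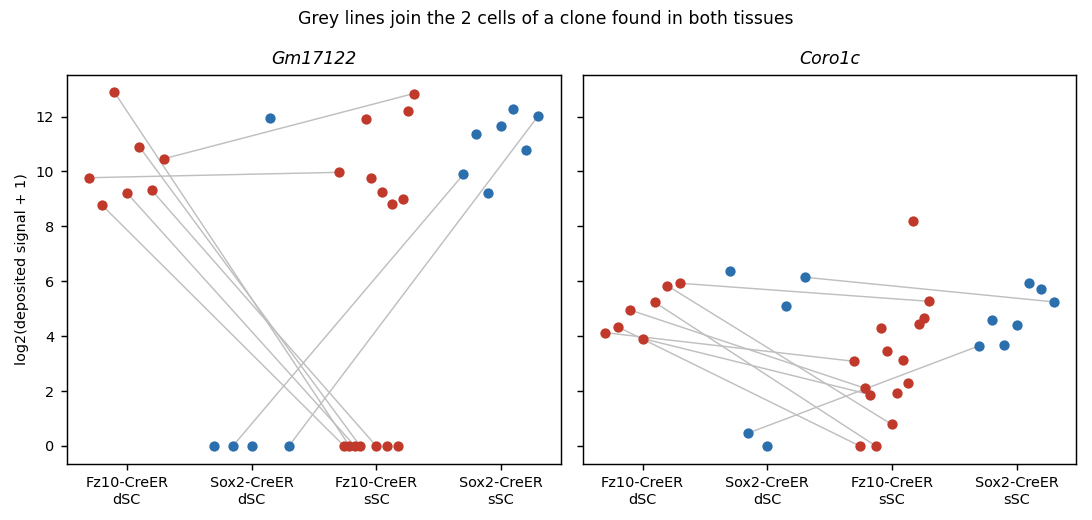
Gm17122 and Coro1c in the dSC and sSC neurons of both drivers, as log2(deposited signal + 1), 1 point per cell, with grey lines between the 2 cells of a clone found in both tissues. In Gm17122, 5 of 7 Fz10-CreER lines run to 0 in sSC and both Sox2-CreER lines run from 0 in dSC; the values are either 0 or at least 438 before the logarithm.

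No other gene passed. At an unadjusted p under 0.05 in limma, 616 genes (3.78%) were higher in Fz10-CreER clones and 169 (1.04%) were lower, and the median difference over all genes was 0.37. Their total of 785 was below a share of 0.05 of the genes tested, the share such a cut gives where no gene differs. Of the 16310 genes 10353 (63.5%) had a positive difference, whatever its p, and 5957 (36.5%) a negative one. These are the shares beside which the counts of lists below are to be set. List counts of another setting are to be set beside the counts of that setting. Without clone D 8396 of 16119 genes were higher and 7723 lower. After quantile normalization 8123 of 16310 were higher and 8187 lower. Without clone Q 10981 of 15699 were higher and 4718 lower. The split at an unadjusted p under 0.05 was 390 higher and 379 lower after quantile normalization (median -0.0058), 310 and 243 without clone D (median 0.055), and 416 and 385 with genes detected as a covariate (median 0.078). What sets the split was not tested. Clone means did not overlap for 58 genes higher in Fz10-CreER clones (0.356%) and for 13 genes lower (0.0797%). For a gene without ties, 1 of the 330 arrangements of 7 and 4 clones separates them fully in a given direction. Separation of this kind thus occurs without any driver difference, and whether the counts exceed that share was not tested. Cd247 reached a signal of 1 in each of 7 Fz10-CreER cells but in none of the 5 Sox2-CreER cells, the 1 gene with that pattern, and no gene had the opposite pattern. Cd247, a signalling chain of the T cell receptor, averaged 1.93 ± 0.88 in Fz10-CreER and 0.50 ± 0.42 in Sox2-CreER clones on the log2 scale, a difference of 1.43 (SE 0.93, limma adjusted p = 0.903). It was singled out after its values were seen, and it overlaps Pou2f1 on the opposite strand.

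Fabp7 came next to Gm17122. It encodes the brain lipid-binding protein, a marker of radial glia and astrocytes. Fabp7 read 204, 285, 645, 43.5, 230, 359 and 379 in the Fz10-CreER cells A.2, B.1, C.1, I.1, J.1, L.2 and U.2. It read 0 in D.1, F.1 and O.1, 47.2 in O.2 and 58.2 in Q.2. Every Fz10-CreER cell had Fabp7 signal, against 2 of 5 cells of Sox2-CreER clones, and I.1 lay below both of these. The difference was 5.77 (SE 1.07) and did not pass (limma adjusted p = 0.207). Without clone Q, whose cell had the highest Fabp7 signal of the Sox2-CreER cells, it was 7.01 and passed (limma adjusted p = 0.0171). That was the 1 of 23 other settings in which Fabp7 passed, and the limma adjusted p reached 0.892 among the rest. In sSC the difference of Fabp7 was 0.40 (SE 1.44). The 16 astrocyte markers in dSC had a median difference of 0.048, with 9 higher and 7 lower, and their summed signal was 758 to 2541 in Fz10-CreER and 944 to 2738 in Sox2-CreER cells. The part of these markers in the Fabp7 difference was not tested.

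Other genes of small p were also higher in Fz10-CreER clones without passing. B3galnt1, a glycosyltransferase of globoside synthesis, read 93.4 to 393 in Fz10-CreER cells, against 0 in D.1, F.1 and O.1, 70.0 in Q.2 and 420 in O.2, a difference of 4.84. Tsta3, of GDP-fucose synthesis, read 42.8 to 442 in Fz10-CreER cells and 0 to 53.4 in Sox2-CreER cells, a difference of 4.31. B4galt3, a galactosyltransferase, differed by 4.54, with 0 in 3 of 5 Sox2-CreER cells and 61.4 to 313 in Fz10-CreER cells. Their limma adjusted p lay between 0.656 and 0.903, and B4galt3 overlaps Ppox on the opposite strand.

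Fbxl15, an F-box protein of a ubiquitin ligase, read 56.9, 559, 54.5, 118, 448, 214 and 304 in the Fz10-CreER cells, against 0, 5.58, 216, 6.40 and 1.80 in D.1, F.1, O.1, O.2 and Q.2. All but O.1 of the Sox2-CreER cells were below every Fz10-CreER cell, and the difference was 5.12 (SE 1.04, limma adjusted p = 0.404). Fbxl15 overlaps Cuedc2 on the opposite strand. Msantd2, which encodes a protein with a Myb/SANT-like domain, read 20.4 to 159 in Fz10-CreER cells and 0 to 7.78 in Sox2-CreER cells. The groups of Msantd2 did not overlap even by cell, and the difference of 5.15 (SE 1.07) had a limma adjusted p of 0.405. Gm32710, antisense to the contactin gene Cntn5, read 0 in all 5 Sox2-CreER cells and in L.2, and 33.7 to 428 in the other 6 Fz10-CreER cells. Its fitted difference was 6.31 (limma adjusted p = 0.656), which depends on the pseudocount. Gm32710 entered the test only through Fz10-CreER cells. It passed in 1 of 23 other settings, without clone L (7.36, limma adjusted p = 0.00686), which removes the 1 Fz10-CreER cell at 0. Among the rest of these settings its limma adjusted p reached 0.990. Reep2, which shapes the endoplasmic reticulum, differed by 4.18 and the nucleolar Nol12 by 4.37.

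Among genes whose clone means stood widest apart, Med14, a subunit of the Mediator complex, read 17.9 to 78.5 in Fz10-CreER cells and 0 to 20.9 in Sox2-CreER cells. Mrtfb, a coactivator of serum response factor, read 10.9 to 61.0 in Fz10-CreER and 0 to 19.4 in Sox2-CreER cells. Cenpv, a centromere protein, read 72.8 to 244 in Fz10-CreER and 0 to 70.2 in Sox2-CreER cells, so that its cells did not overlap. Their differences were 3.61, 3.11 and 3.61, with a limma adjusted p of 0.903 each. Med14, Mrtfb and Cenpv were each at 0 in D.1, the cell with the fewest genes (7095). Fbxl15, Tsta3, Msantd2, Reep2 and Nol12, given above, were also at 0 in D.1. The part of the low number of genes in D.1 in these differences was not tested. For Nol12 the sSC difference was -2.82 (SE 1.19), and the dSC minus sSC difference of 7.19 did not pass (limma adjusted p = 0.363).

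No gene that was lower in Fz10-CreER clones passed. Sod1, the cytosolic superoxide dismutase, read 199, 80.7, 181, 252, 71.3, 256 and 359 in the Fz10-CreER cells, against 5226 in D.1, 2082 in F.1, 221 in O.1, 225 in O.2 and 488 in Q.2. D.1 and F.1 stood above all other cells, and the cells of clone O were within the Fz10-CreER range. The difference was -2.58 (SE 0.70, limma adjusted p = 0.903). Uqcrq, a subunit of respiratory complex III, read 262 to 908 in Fz10-CreER cells and 728 to 2076 in Sox2-CreER cells (-1.48). Cyc1, the cytochrome c1 of the same complex, read 246 to 1025 in Fz10-CreER cells and 942 to 2663 in Sox2-CreER cells (-1.40). Over all 62 nuclear subunits of oxidative phosphorylation tested, 34 were higher and 28 lower, with a median of 0.056.

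Lrrc39 read 0 in 5 Fz10-CreER cells, 12.7 in B.1 and 2.28 in I.1, against 161, 31.9, 2.90, 68.4 and 59.6 in D.1, F.1, O.1, O.2 and Q.2. The difference was -4.80 (SE 1.22, limma adjusted p = 0.903). Cldn5, a tight junction protein of endothelial cells, read 0 in 5 Fz10-CreER cells, 1.32 in A.2 and 4.87 in C.1, against 26.7, 25.2, 16.1, 0 and 104 in the Sox2-CreER cells. Its difference was -4.03 in dSC and 1.04 in sSC, and the difference between tissues did not pass (limma adjusted p = 0.749). Of 16 vascular and meningeal markers 12 were tested, and these had a median of -0.13, with 5 higher and 7 lower. The summed signal of all 16 was 837 to 2428 in Fz10-CreER and 538 to 1857 in Sox2-CreER cells, and the part of these markers in the Cldn5 difference was not tested. Myc, a growth-promoting transcription factor, was at 0 in 6 of 7 Fz10-CreER cells and at 5.49 in A.2, against 69.6, 76.1 and 80.3 in D.1, F.1 and Q.2 and 0 in both cells of clone O (-4.30).

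Of the other genes lower in Fz10-CreER clones, the zinc finger gene Zfp78 was at 0 in 6 of 7 Fz10-CreER cells (-3.69) and the noncoding 1700003D09Rik also in 6 of 7 (-5.01). 1700003D09Rik overlaps Ppp1r1b on the opposite strand. Both reached 1 in at least 4 of 5 Sox2-CreER cells and at most 1 of 7 Fz10-CreER cells, and their reads cannot be told apart. 4921501I09Rik, antisense to Ncoa1, differed by -5.41, and Mcrip2 by -4.55. Clone means did not overlap for Ubash3b, a protein phosphatase, at 0.725 to 14.8 in Fz10-CreER and 9.39 to 80.8 in Sox2-CreER cells (-3.26). The same held for the ubiquitin ligase Lnx2 (-2.35), Mfap3l (-3.00) and the noncoding Gm33838 (-2.57). The paternally expressed Peg3 read 72.8 to 131 in Fz10-CreER cells and 119 to 492 in Sox2-CreER cells (-1.13). None passed, and each had a limma adjusted p of 0.903.

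**Figure D3:**
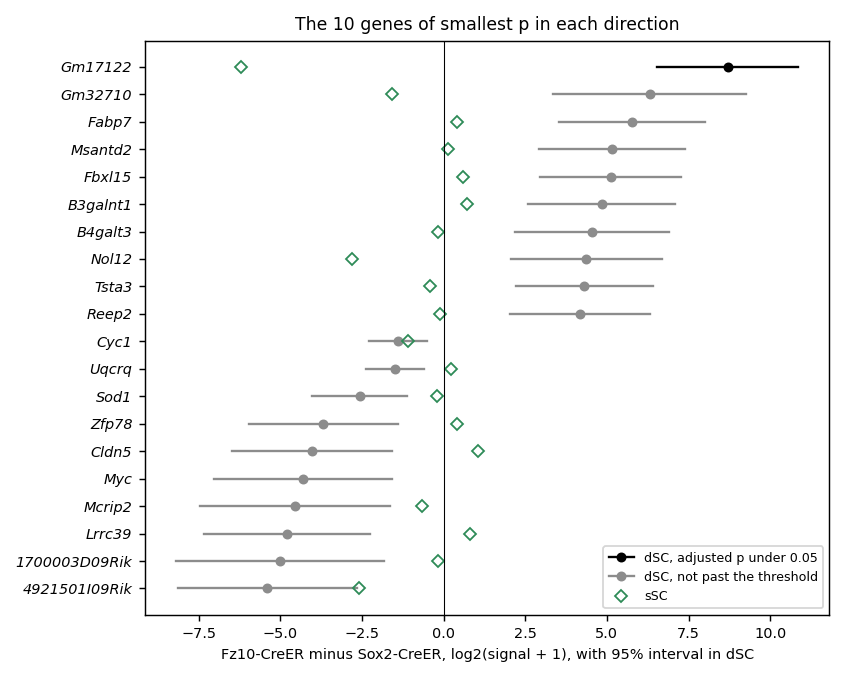
Fz10-CreER minus Sox2-CreER differences in dSC for the 10 genes of smallest p in each direction, in log2(signal + 1), with 95% intervals from limma and, as open diamonds, the same difference in sSC. Gm17122 (8.70) is the 1 gene past the threshold, and its sSC value lies at -6.21; Myc was not tested in sSC.

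Transmitter genes varied widely among the Fz10-CreER cells, and none differed between the drivers past the threshold. Slc17a6 was at 0 in A.2, B.1 and U.2 and read 88.4, 370, 763 and 105 in C.1, I.1, J.1 and L.2. Sox2-CreER cells read 128, 345, 53.8, 19.2 and 137 in D.1, F.1, O.1, O.2 and Q.2, so that none was at 0. Gad1 read 642, 258 and 322 in A.2, B.1 and U.2, and 62.3, 27.2, 4.76 and 48.7 in C.1, I.1, J.1 and L.2. The 3 Fz10-CreER cells without Slc17a6 had the highest Gad1 of their group. Among Sox2-CreER cells Gad1 read 0, 40.1, 175, 436 and 53.6 in D.1, F.1, O.1, O.2 and Q.2, with both cells of clone O highest. Gad2 read 0 to 564 in Fz10-CreER and 4.56 to 605 in Sox2-CreER cells. The differences were -2.43 (SE 1.89) for Slc17a6, 1.56 (SE 1.38) for Gad1 and 0.86 (SE 1.53) for Gad2, and none passed (limma adjusted p between 0.911 and 0.972).

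The transmitter balance, which subtracts the log2 value of Slc17a6 from the average of Gad1, Gad2 and the vesicular GABA transporter Slc32a1, was 7.99, 6.75 and 6.52 in A.2, B.1 and U.2, -0.86 in C.1, and -4.46, -7.02 and -4.86 in I.1, J.1 and L.2. In Sox2-CreER cells it was -6.18, -3.09 and -3.40 in D.1, F.1 and Q.2, and 0.60 and 3.34 in O.1 and O.2. It averaged 0.58 ± 6.36 in Fz10-CreER clones (SD, n = 7) and -2.68 ± 3.40 in Sox2-CreER clones (SD, n = 4), and the difference of 3.26 did not pass (two-sided exact permutation test, p = 0.352). Both drivers thus held cells on either side of 0, and the Fz10-CreER range enclosed the whole Sox2-CreER range.

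All 8 genes tested of GABA and glycine transmission were higher in Fz10-CreER clones, with a median of 1.40 against 0.37 over all genes. The vesicular transporter Slc32a1 (0.067) and the glycine transporter Slc6a5 (0.48) were near 0, and both had a negative difference without clone D (-0.67 and -0.11). Without clone D, 4 of the 8 genes were higher and the median was 0.065. Gls2, a glutaminase, read 52.3 to 177 in Fz10-CreER and 0 to 107 in Sox2-CreER cells (2.86). Tyrosine hydroxylase, Th, was above 0 in A.2, C.1 and U.2 (14.3, 18.1 and 44.9) and at 0 in all Sox2-CreER cells (1.96). Th thus entered the test only through Fz10-CreER cells. Ddc, the next enzyme of dopamine synthesis, differed by -2.37, and neither gene passed (limma adjusted p = 0.903 each).

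**Figure D4:**
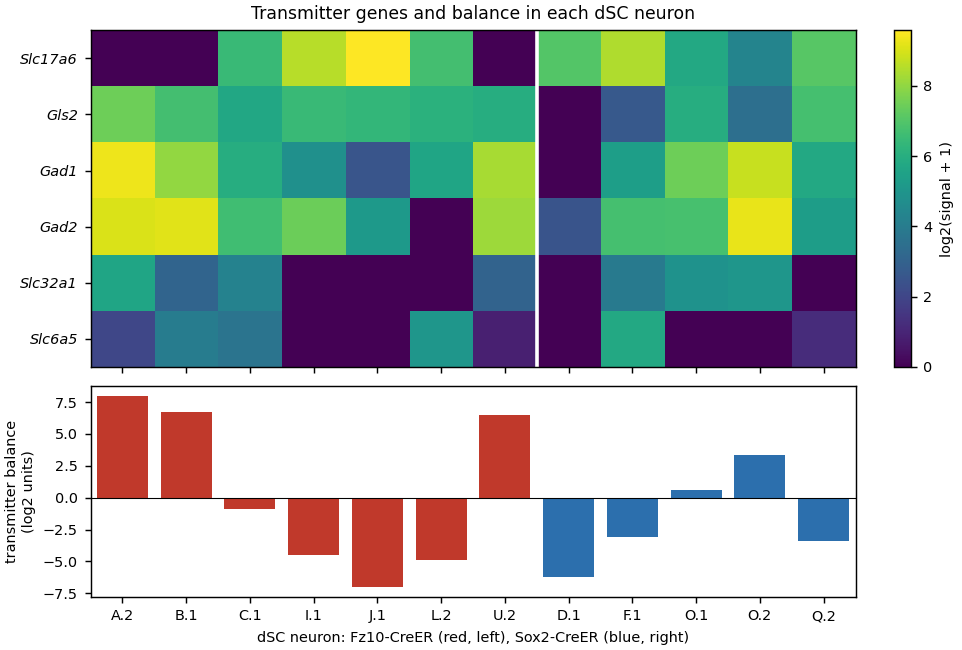
Transmitter genes (upper panel, colour, log2(signal + 1)) and transmitter balance (lower panel, bars, log2 units) in each dSC neuron, with Fz10-CreER cells at the left and Sox2-CreER cells at the right. Balances run from -7.02 to 7.99 in Fz10-CreER cells and from -6.18 to 3.34 in Sox2-CreER cells; A.2, B.1 and U.2 have no Slc17a6.

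Transcription factors of GABAergic midbrain neurons were higher in Fz10-CreER clones in 12 of 14 tested, with a median of 1.13 (0.81 without clone D and 0.78 after quantile normalization, with 10 and 11 of 14 higher). None had an unadjusted p under 0.05 in limma. Sox14 read 129, 92.8 and 95.2 in A.2, B.1 and U.2 and 16.03 in C.1, and was at 0 in I.1, J.1 and L.2. It was at 62.7 in O.2 and at 0 in the other 4 Sox2-CreER cells, for a difference of 2.72. The 3 highest Sox14 cells were the 3 with the highest transmitter balance. Zfpm2, a cofactor of GATA factors, differed by 2.37. Of the factors of glutamatergic neurons 8 of 17 were higher, with a median of -0.48 that was 0.074 without clone B and -0.73 without clone I. Of these Neurod6 read 94.1, 117, 206 and 70.7 in C.1, I.1, J.1 and U.2, 0 in the other Fz10-CreER cells, and 0 to 1.34 in Sox2-CreER cells (3.75), and Barhl2 was above 0 in 4 Fz10-CreER cells and in no Sox2-CreER cell (1.68). Of 13 regional midbrain factors 9 were higher. Their median of 1.07 was 0.60 without clone O, 1.69 at a pseudocount of 0.1 and 0.43 at 10. Among them Irx2 had signal in 5 of 7 Fz10-CreER cells, against 1 of 5 from Sox2-CreER clones (2.43).

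The genes behind the drivers were sparse in these neurons. Fzd10 read 1.72, 11.9 and 4.13 in A.2, I.1 and J.1, 4.63 in F.1, and 0 elsewhere, a difference of 0.45 (-0.050 after quantile normalization). Sox2 read 42.6, 27.5 and 0.91 in A.2, C.1 and U.2, 126 in Q.2, and 0 elsewhere, a difference of -0.15. The mRNA of neither gene thus separated the groups. Of 11 radial glia and driver genes tested, 5 were higher and 6 lower, with Fabp7 the 1 at an unadjusted p under 0.05 in limma. Vim, an intermediate filament of radial glia, was above 0 in A.2, L.2 and U.2 and in O.1 (2.19). Pax6, a progenitor factor, differed by -1.27. Of 10 Sox genes 5 were higher, and Sox11, of immature neurons, differed by 2.35.

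Wnt pathway genes did not differ between the drivers past the threshold. Of 7 Frizzled receptors tested 5 were higher (71.4%, against 63.5% of all genes), with a median of 0.24, below that of all genes, and of 0.010 without clone I. Fzd6 read 29.4 in D.1 and 92.5 in Q.2, 5.44 in C.1, and 0 in the other 9 cells (-2.48). Of 22 Wnt ligands, co-receptors and secreted regulators 11 were higher and 11 lower. Rspo2, which potentiates Wnt signals, was at 2.32 in B.1, 0.112 in J.1 and 0 in the other Fz10-CreER cells, and at 33.8, 25.9 and 9.73 in F.1, O.1 and Q.2 (-2.46). Its relative Rspo1 read 41.5, 10.7 and 31.9 in B.1, C.1 and U.2 and 0 in all Sox2-CreER cells (2.00). Rspo1 thus entered the test only through Fz10-CreER cells. Neither Rspo gene passed (limma adjusted p = 0.903 each). Of 36 genes of Wnt signal transduction 26 were higher (72.2%, against 63.5% of all genes), with a median of 0.56, among them the Dishevelled genes Dvl1 (2.41) and Dvl3 (2.19), and the list's median was 0.21 without clone D and 0.023 after quantile normalization.

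Of 16 Eph receptors and ephrins, the contact guidance system that maps retinal axons in the colliculus, 10 were higher and 6 lower, with a median of 0.83 (0.58 without clone D, 0.31 after quantile normalization). In limma 4 of the 16 had an unadjusted p under 0.05, all higher, against 3.78% of all genes. Without clone D 3 had it, beside 310 genes higher and 243 lower of 16119. No other list examined had as many as 4, and the lists were chosen with earlier results known. Whether this share exceeds that of all genes was not tested. Epha10 read 140, 180, 24.5, 90.4, 104, 110 and 140 in the Fz10-CreER cells, against 14.2, 5.23, 0, 9.58 and 50.8 in the Sox2-CreER cells. All Fz10-CreER cells but C.1 were above every Sox2-CreER cell, and the difference was 3.15 (SE 0.94). Ephb1 read 19.1 to 151 in Fz10-CreER and 0 to 19.2 in Sox2-CreER cells, with A.2 and F.1 nearly level (3.08, SE 1.06). Epha7 (2.83) and Efna2 (3.64) were the other 2, and were named after their values were seen. Each of the 4 had a limma adjusted p of 0.903, and Epha10 and Ephb1 have annotated genes on the opposite strand. Among 23 cadherins, 12 were higher, and Cdh10 read 56.98 to 222 in 6 Fz10-CreER cells and 2.31 in L.2, against 0.81 to 22.8 in Sox2-CreER cells (2.90). Of 34 semaphorin, plexin, Slit and netrin genes 23 were higher (67.6%, against 63.5% of all genes), with a median of 0.28, below that of all genes, and of 0.033 without clone J and 0.70 without clone Q.

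Calcium-binding proteins were lower in Fz10-CreER clones in 12 of 15, with a median of -0.53 (-0.49 without clone D, -0.75 after quantile normalization). None had an unadjusted p under 0.05 in limma. Pvalb, the parvalbumin gene, read 311, 0, 816, 160, 940, 723 and 653 in the Fz10-CreER cells, against 3057, 335, 2134, 20.7 and 1293 in the Sox2-CreER cells, so that the ranges overlapped and the 2 cells of clone O lay far apart. Hpcal1, a neuronal calcium sensor, read 1.10 to 271 in Fz10-CreER and 162 to 428 in Sox2-CreER cells (-1.86). Of 18 neuropeptide genes 13 were higher (72.2%, against 63.5% of all genes), with a median of 0.40, near that of all genes, and of -0.0026 without clone D. Npy, of neuropeptide Y, had signal in 4 of 7 Fz10-CreER cells, against 1 of 5 from Sox2-CreER clones (3.23). Cck read 0 to 1057 in Fz10-CreER and 0 to 225 in Sox2-CreER cells (3.07). Tac1, of substance P, had signal in 2 of 7 Fz10-CreER cells, against 4 of 5 from Sox2-CreER clones (-3.44), and Sst, of somatostatin, reached 5640 in L.2 and 2107 in O.2 (-1.95).

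Of 23 glutamate receptors 14 were higher, with a median of 0.36, and Grin3a (2.72) and Gria4 (1.52) had the smallest p of them. Of 20 GABA and glycine receptors 9 were higher, with a median of -0.083. Of 29 monoamine, acetylcholine and peptide receptors 15 were higher, and the nociceptin receptor Oprl1 read 8.68 to 269 in Fz10-CreER and 0 to 101 in Sox2-CreER cells (2.67). The nicotinic subunit Chrna4 differed by 2.63. Sodium, calcium and HCN channels were higher in 23 of 29, with a median of 0.54 that was 0.10 without clone D and 0.073 after quantile normalization. Of 33 potassium channels 15 were higher. The G protein-gated Kcnj9 read 0.437 to 52.4 in Fz10-CreER and 18.8 to 428 in Sox2-CreER cells (-2.35). Of 28 genes of presynaptic release 16 were higher (median 0.054), and of 20 synaptic adhesion genes 10.

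Immediate early genes, which neurons switch on within minutes of activity or handling, were lower in Fz10-CreER clones in 15 of 22, with a median of -0.46 (-0.18 without clone D). Egr1 read 68.6, 95.1, 62.8, 29.4, 87.1, 248 and 53.8 in the Fz10-CreER cells, against 291, 590, 146, 38.8 and 317 in the Sox2-CreER cells. D.1, F.1 and Q.2 were above all Fz10-CreER cells, and O.2 was below 6 of them (-1.73, SE 0.70). Nr4a2 differed by -2.69. Both had a limma adjusted p of 0.903, and without clone Q, 10 of 22 were higher. Of 17 heat shock genes 7 were higher, with Hspa4 at 6.28 to 93.7 in Fz10-CreER and 0 to 57.5 in Sox2-CreER cells (3.51).

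The 10 genes tested of the mitochondrial genome's respiratory subunits were all higher in Fz10-CreER clones, with a median of 0.66 (0.33 without clone D and 0.43 after quantile normalization, with 8 and 7 of 10 higher). mt-Nd2 read 6542 to 15884 in Fz10-CreER cells and 4279 to 9691 in Sox2-CreER cells (0.66, SE 0.26, limma adjusted p = 0.903). These genes have nuclear copies that can share reads. Of 79 cytosolic ribosomal protein genes, which have many processed copies, 41 were higher, and Rpl5 (-1.53) and Rpl6 (-1.23) had an unadjusted p under 0.05 in limma. Of 23 imprinted genes 17 were higher (73.9%, against 63.5% of all genes), with a median of 0.41, near that of all genes, and of 0.066 without clone D. Mest, expressed from the paternal allele, read 11.9 to 273 in Fz10-CreER cells, and 0 in D.1, F.1 and O.1, 81.1 in O.2 and 35.9 in Q.2 (3.84). The noncoding Rian read 52.2 to 178 in Fz10-CreER and 0.801 to 210 in Sox2-CreER cells (1.93).

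Each of the 12 cells had signal from markers of microglia, astrocytes, oligodendrocytes and their precursors, vessels and blood, while ependymal and choroid markers summed to 0 in A.2, B.1 and O.1. The 18 microglia markers summed to 1712 to 13712 in Fz10-CreER cells (median 4310) and 459 to 17268 in Sox2-CreER cells (median 3370), with 15 of 18 higher and a median difference of 0.98. Without clone D, whose cell had the lowest sum, 5 of 18 were higher, beside 8396 of 16119 genes in that fit, and the median was -0.54. Trem2, a microglial receptor, read 3.90 to 115 in Fz10-CreER cells and 0 to 4.94 in Sox2-CreER cells (3.45), and Lst1 read 106 to 270 in Fz10-CreER and 0 to 604 in Sox2-CreER cells (2.07, and 0.24 without clone D). The 16 oligodendrocyte markers summed to 1305 to 9246 in Fz10-CreER cells (median 3454) and 4719 to 8808 in Sox2-CreER cells (median 6730), with 11 of 16 lower and a median of -0.75. Without clone D 15 of 16 were lower, with a median of -0.99. Mbp, of myelin, read 2943, 1574, 2065, 1008, 567.5, 933 and 1161 in the Fz10-CreER cells, against 1436, 3546, 2787, 2570 and 3340 in the Sox2-CreER cells. The ranges overlapped (-1.01, SE 0.39, limma adjusted p = 0.903). Mal2, in the same list, differed by 2.79.

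All 4 red blood cell genes tested were lower, with a median of -1.41 that was -0.45 without clone Q, -0.74 without clone B and -2.13 without clone L. Hbb-bs, a haemoglobin gene with a near-identical neighbour, read 0 to 715 in Fz10-CreER and 77.8 to 1841 in Sox2-CreER cells (-2.53). No marker list was at 0 in either group as a whole. No gene of these marker lists passed, and their part in any difference given above was not tested.

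**Figure D5:**
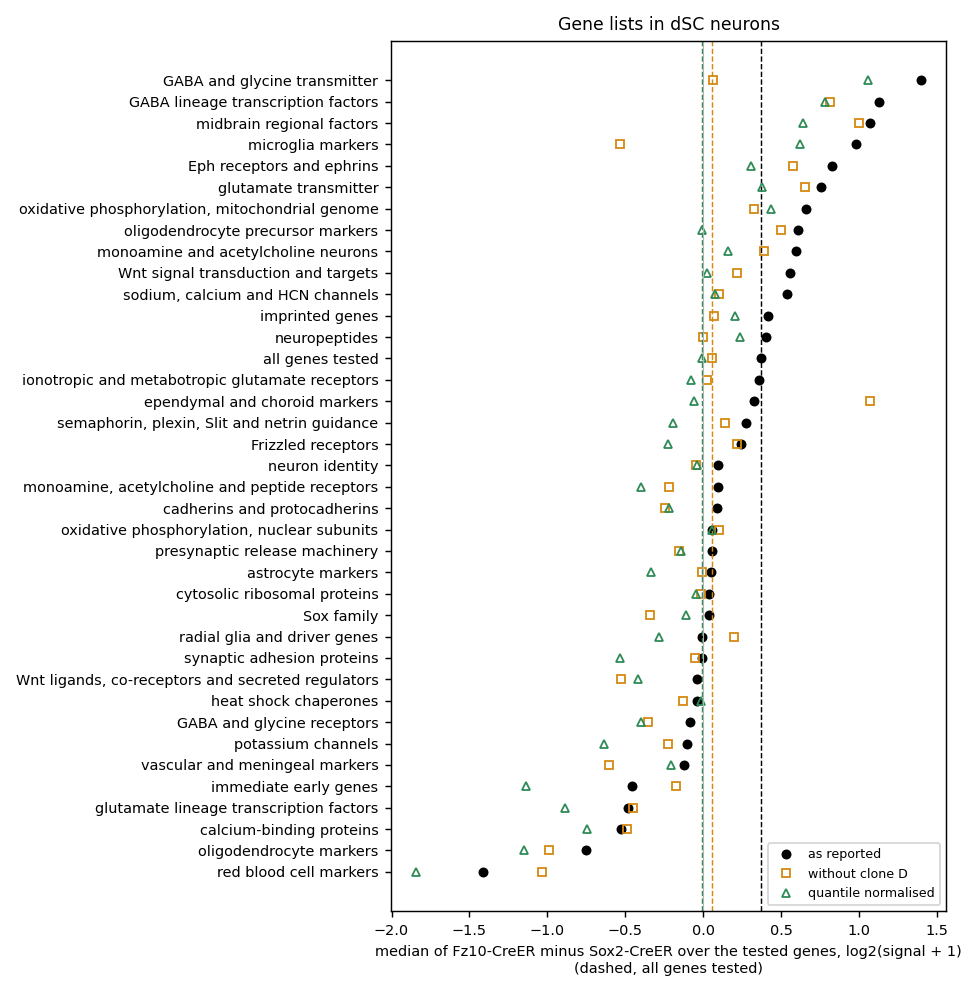
Median Fz10-CreER minus Sox2-CreER difference over the tested genes of each list, in log2(signal + 1), as reported (filled circles), without clone D (squares) and after quantile normalization (triangles), with dashed lines at the median of all genes tested (0.37, 0.055 and -0.0058). GABA and glycine transmission (1.40) and microglia markers (0.98) stand at 0.065 and -0.54 without clone D, and oligodendrocyte markers, calcium-binding proteins and immediate early genes are below 0 in all 3 settings.

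The 2 cells of clone O, which share 1 progenitor, the driver and the tissue, differed from each other by a median of 1.37 in absolute log2 value over the 16310 genes. The 6 pairs of a clone O cell and another Sox2-CreER dSC cell differed by 1.22 to 1.84. The gap of this 1 pair of sister cells was therefore within the range of those 6 pairs. Pairs among clones D, F and Q were not computed. Each of the other clone means rests on 1 cell, so the spread within those clones is not measured.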

How the data were processed

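The authors deposited 1 table of an expression signal per gene and cell, named TPM of exon plus intron, with 55359 genes and 36 cells. Each cell sums to 2000000, so the signal was not treated as plain TPM, which the plan had assumed; tests on a log scale served both. The submitters' processing notes name STAR 2.7.9a, R 4.0.3 and GRCm39. Neither the counting program nor its annotation or strand setting is given in the sources used here. The table held 0 columns of other samples. Symbols, gene types, lengths and overlaps were taken from GENCODE M21 (built on an earlier assembly than GRCm39), without positions. Opposite-strand overlaps are given above for some genes only. Other genes named also have one, among them Sod1 (Scaf4), Lrrc39 (Trmt13), Mcrip2 (Gm26694), Ubash3b (Gm35657), Gls2 (Spryd4) and Mest (Copg2). A symbol was found for 52083 genes.

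A gene entered a test if 25% of the cells compared reached a value of 1, on log2(value + 1), which understates differences of low genes. A gene below 1 in all cells of 1 driver could enter only through the other driver, which sets its direction. Rspo1, Th, Barhl2, Gm32710, Cd247, Zfp78 and Lnx2 entered in this way in dSC. Cells of a clone in a tissue were averaged. With trend and robust switched on in eBayes, limma 3.58.1 (R 4.3.3, Benjamini-Hochberg, threshold 0.05) compared 7 with 4 clones in dSC and 11 with 5 in sSC, and tested the interaction on 27 means. It was tried on simulated data of normal spread, with known differences added to genes of higher average. These data do not imitate genes at either 0 or a high signal, so they do not bear on the Gm17122 call. Single values were compared by two-sided exact permutation in Python 3.11.15 with numpy 2.4.6 and pandas 2.3.3. Figures used matplotlib 3.10.9.

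Genes named are the 10 per direction of smallest p, up to 6 per direction with the widest gap between clone means, up to 2 per list by p and a fixed set of transmitter and driver genes; exceptions are marked. Members, lists and the rule were chosen with earlier results of these data known. Alternatives changed the pseudocount, filter, scaling, model options, the treatment of clone O, or left out 1 clone. Replicate numbers only name cells, since no clone carries both drivers. Siblings in dSC and sSC share a progenitor, which pairs them. The main interaction fit left this pairing out, and only the replicate block by clone used it. P-values measure the spread between clone means, whose animals are not named. Some results that the rule would give are not reported here.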

Additional observations from a re-analysis of the deposited data

Results flagged for a closer look

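In the main fit, which left out the pairing of sibling cells, the driver difference of Gm17122 differed between the tissues. There dSC minus sSC was 14.90 (limma adjusted p = 0.0311). This call ended under 6 of the 9 other settings and when any of 13 single clones was left out. With clone as a replicate block, which keeps the pairing, it did not pass (limma adjusted p = 0.638).

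In 32 of 168 groups of clone means examined, 1 clone stood apart from the rest by Dixon's 95% limit. That limit flags about 1 in 20 groups by chance where values are normally spread, which does not hold here. In many of these groups all other clones were at 0, and any single value above 0 is then flagged. Many of the genes were also named for their separation between drivers. Values are log2(signal + 1).

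Among Fz10-CreER clones the value apart was the lowest for Fabp7 (5.47), Gm32710 (0), Epha10 (4.67), Cdh10 (1.73), Pvalb (0), Hpcal1 (1.07), Cck (0), Kcnj9 (0.52) and Chrna4 (0). It was the highest for Cenpv (7.94), 4921501I09Rik (6.92), Zfp78 (0.82), Myc (2.697), 1700003D09Rik (7.38), Mfap3l (1.92), Fzd6 (2.69), Rspo2 (1.73) and Pax6 (4.998).

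Among the 4 Sox2-CreER clones the value apart was the lowest for Mrtfb (0), Myc (0) and mt-Nd2 (12.06). It was the highest for Gm17122 (5.98), Peg3 (8.94), Sox14 (3.00), Neurod6 (0.61), Fzd10 (2.49), Sox2 (6.99), Sox11 (3.15), Vim (1.10), Npy (3.01), Irx2 (6.47) and Efna2 (3.54).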

How the results depend on the processing

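The dSC count of 1 gene was 0 without trend and robust, with the spread shared with sSC, with O.2 alone and with clone O averaged on the linear scale, and 0 to 2 when single clones were left out (0 without D or F; 2 without L, adding Gm32710, or Q, adding Fabp7). The sSC count of 0 (587 genes at an unadjusted p under 0.05 in limma) was 1 at a pseudocount of 10 and 0 to 5 over left-out clones (1 without F, 5 without H). The interaction count of 1 was 0 at a pseudocount of 10, without the filter, after quantile normalization, without trend and robust, with genes detected as a covariate and with the replicate block by clone, where Gm17122 had 17.90 (limma adjusted p = 0.638), and 0 to 1 over left-out clones. In the paired fit only clones with cells in both tissues inform it. No paired fit within dSC was possible because no clone carries both drivers. The transmitter balance and the number of genes detected kept their sign and stayed short of the threshold in every setting tried. Left-out clones moved the balance difference between 2.02 and 4.81 and the genes detected between 219 and 2459.

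Signs changed for 8 of the named genes, none past the threshold. With genes detected as a covariate Gad2 was -0.33, Slc32a1 -0.80 and Rbfox3 -0.014. After quantile normalization Slc32a1 was -0.45, Rbfox3 -0.33 and Fzd10 -0.050. Slc32a1 was -0.016 at a pseudocount of 10 and Sox2 0.31 at 0.1. Over left-out clones Slc32a1 was -0.49 (A), -0.068 (B), -0.26 (C), -0.67 (D and Q) and -0.063 (U), Rbfox3 -0.015 (B), -0.010 (F) and -0.12 (O), Slc6a5 -0.11, Gad1 -0.039 without D, Gad2 -0.19 without D, Coro1c -0.12 without F and Sox2 0.12. The causes of these shifts were not tested. The median over all genes was 0.59 and 0.15 at pseudocounts of 0.1 and 10, 0.078 with genes detected as a covariate, and 0.68 without clone Q. The values keep no read depth, a 0 may be a molecule that was not captured, and 4 Sox2-CreER clones limit what a difference can show.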
